A study of Homo sapiens with 4 samples.

Results

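Condensins are ring-shaped protein complexes that fold chromatin into the compact rods seen in mitosis. Each has the same pair of ATPase arms, SMC2 and SMC4, closed by a kleisin subunit that carries HEAT-repeat subunits. Condensin I uses NCAPH, NCAPD2 and NCAPG, and reaches the chromosomes after the nuclear envelope has broken down. Condensin II uses NCAPH2, NCAPD3 and NCAPG2, is nuclear already in interphase, and starts the compaction. The 8 subunit genes were taken by symbol from the 18885 genes of the table, and all 8 were among the 16937 genes tested. The cells were MV4-11, a human acute myeloid leukemia (AML) line, with 2 libraries of NC cells and 2 libraries of cells carrying an shRNA against ANP32B (sh-ANP32B), a histone-binding nuclear protein. The labels give the NC cells no shRNA and no treatment, whereas the study names a control hairpin (sh-NC) and puromycin selection of stable cells. Were the NC cells without a hairpin, effects of transduction and of the knockdown cannot be told apart. The study used several ANP32B hairpins, and both knockdown columns carry the same mark, S3. Were both from the same hairpin, its off-target effects and the loss of ANP32B cannot be told apart. Nothing in the labels says that the libraries of a group came from separate cultures, so p-values measure only the spread between these libraries, which may be technical.

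All 8 condensin genes fell after ANP32B knockdown, to between 44.6% (NCAPH) and 64.4% (SMC2) of the NC mean. The 2 genes with the least transcript left, NCAPH and NCAPG, both belong to condensin I, and the 2 with the most left were the shared arms SMC2 and SMC4. The 3 subunits of condensin II alone lay close together, at 54.7% to 56.2%. The remaining condensin I subunit, NCAPD2, kept 57.2%, more than any of these 3. Values are TPM, read density over gene length scaled to a common total. Each level is thus a share of its library, and depends on the other genes in it. Mitochondrial genes held 15.9% and 15.4% of the TPM in NC and 17.6% and 17.4% in sh-ANP32B.

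Several stretches of sequence near the transcription starts are shown because the motifs searched here are known from promoters of mitotic genes. The motifs were chosen with earlier results of these data known. Whether they bear on the fall of the 8 genes was not tested. The CHR element (TTTGAA) is bound by the MuvB complexes that hold mitotic genes down in resting cells and raise them in G2, and the CCAAT box is bound by NF-Y. Windows of 250 bases before and 50 after the RefSeq start (GRCh38.p14) were searched on both strands, with 10 windows for 7 of the 8 genes. NCAPH2 had no window and is named only. A CHR match was present in 6 of the 7 genes, against 13.5% of the 10015 tested genes with a window. By windows it was in 6 of 10, against 15.2% of all 35116 promoter windows, not limited to those of genes tested. In NCAPD3 every motif match lay in the window of the start at 134223967, inside the gene. The window of its outer start, at 134225461, held none. The NCAPG2 match lay after its start, at bases 35 to 40, and its printed stretch ends with the window. The matches are printed in capitals on the strand of each gene, so that TTCAAA is the same element read in reverse.
SMC2 (chr9:104094294-104094323, plus strand): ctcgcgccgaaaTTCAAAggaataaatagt
SMC4 (chr3:160399563-160399592, plus strand): gccgcactttttTTCAAAttagtggatccc
NCAPD2 (chr12:6493945-6493974, plus strand): cagccgttgagaTTTGAActcggtatttgt
NCAPG (chr4:17810932-17810961, plus strand): tcgcgggaattaTTTGAAcgttcgagcggt
NCAPD3 (chr11:134223953-134223982, minus strand): gcgggagcgagcTTTGAAagttgagcacgg
NCAPG2 (chr7:158704755-158704781, minus strand): ccggcgggtgcgTTTGAAtctggtccg

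The gene without a CHR match in its window was NCAPH, whose transcript fell furthest. It held 1 CCAAT box, whose first base is at -112 from the start, which is in capitals in the bases before that start.
NCAPH (chr2:96335516-96335765, plus strand): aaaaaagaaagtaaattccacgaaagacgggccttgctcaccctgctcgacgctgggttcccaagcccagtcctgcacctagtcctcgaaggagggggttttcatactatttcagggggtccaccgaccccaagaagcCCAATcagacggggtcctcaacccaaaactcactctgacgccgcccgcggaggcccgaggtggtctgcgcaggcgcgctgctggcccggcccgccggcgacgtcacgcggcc
NCAPG, the next lowest, had 2 matches to the E2F letters (TTCCCGC or TTGGCGC) beside its CHR match, all 3 in capitals here.
NCAPG (chr4:17810759-17810978, plus strand): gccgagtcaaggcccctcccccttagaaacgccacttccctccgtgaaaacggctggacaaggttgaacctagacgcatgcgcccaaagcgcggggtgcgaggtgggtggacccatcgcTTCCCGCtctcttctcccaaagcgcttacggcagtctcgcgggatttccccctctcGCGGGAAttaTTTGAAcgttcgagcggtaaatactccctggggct
CCAAT was found in 3 of the 7 genes, 4 times in NCAPD2, 2 times in NCAPD3 and once in NCAPH. This share is near the background, since 42.6% of tested genes with a window held it (3 of 10 windows, against 34.6% of all windows). The E2F letters were found in 2 of the 7 genes, NCAPG and NCAPD3, against 17.4% of tested genes with a window (2 of 10 windows, against 9.23% of all windows). The E-box CACGTG, bound by MYC among others, was in none of the 7 genes, against 12.9% of tested genes with a window (0 of 10 windows, against 7.26% of all windows). With only 7 genes, the E2F and E-box counts are also near what these shares give. No matches of different motifs overlapped in these windows. A match describes the letters only, and no binding was measured here.

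**Figure D1:**
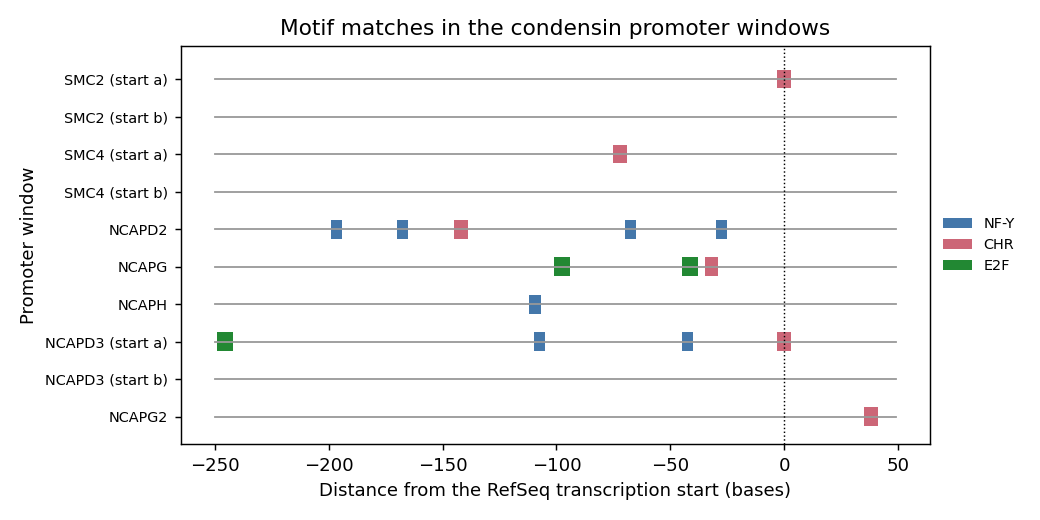
Matches to the NF-Y, CHR and E2F letters (coloured boxes) along the 10 promoter windows of 7 condensin genes, by distance in bases from the RefSeq start (dotted line, 0); 2 windows of a gene with 2 starts are marked a and b in order of position. CHR boxes stand in 6 windows, and NCAPD2 carries 4 NF-Y boxes.

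ANP32B itself, the targeted gene, had 358 and 364 TPM in NC and 54.1 and 49.3 TPM in sh-ANP32B, 14.3% of the NC mean. The libraries summed to between 997271 and 998546 TPM, and replicates had a Pearson's r of 0.989 (NC) and 0.987 (sh-ANP32B) across genes, which are not independent replicates. All 5 markers of the line (FLT3, CD33, SPI1, HOXA9, MEIS1) were present, at 5.52 to 361 TPM. Of the 16937 genes tested with limma on log2(TPM + 1), 1712 were called lower and 3024 higher, with a Benjamini-Hochberg adjusted p below 0.05 and a change of more than 0.5 on the log2 scale. Of these calls 36.1% were lower, a share that was 50.2% with quantile normalization and 47.1% with median-of-ratios scaling. Quantile normalization moved the median over all genes from 0.08 to -0.04 on the log2 scale, while the median of the 8 condensin genes went from -0.83 to -0.82. Median-of-ratios scaling moved the median over all genes to 0.01 and that of condensin to -0.91. Of the 5 markers of the line, SPI1 was called higher (log2 fold change 0.51) and MEIS1 lower (-0.61), and 3 were not called.

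The count for condensin was 8 of 8 called lower, where 10.1% of all genes tested were called lower, and 0 of 8 higher, where 17.9% were. At an unadjusted p with the same fold limit 10.8% of all genes were lower, and with the adjusted p alone 19.7%, again with 8 of 8 condensin genes. Only NCAPH passed a fold limit of 1 on the log2 scale, as 1.61% of all genes did in this direction. In each of the 8 genes both knockdown libraries lay below both NC libraries, and 32.1% of all genes tested did so. The log2 fold changes of the 8 ran from -1.14 to -0.62 with a median of -0.83, against a middle range of -0.26 to 0.45 (percentiles 25 and 75) for all genes. For any 1 gene the smallest two-sided p of an exact permutation over these 4 libraries is 0.333, and the adjusted p-values therefore depend on limma's pooling of variance over genes. Replicates of the 8 genes differed by at most 0.13 in NC and 0.14 in sh-ANP32B on the log2 scale.

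**Figure D2:**
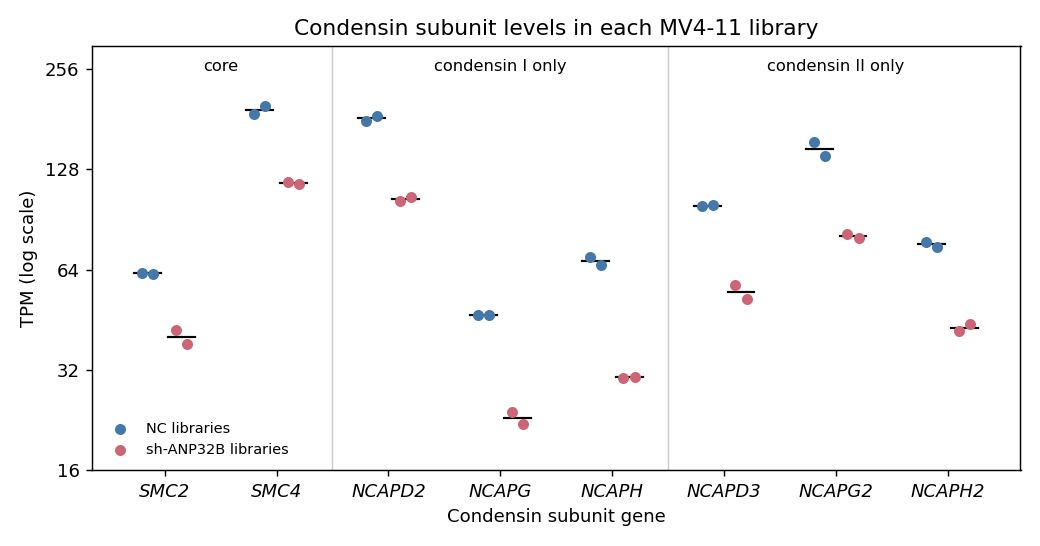
TPM (log scale) of the 8 condensin genes in each library, with NC in blue and sh-ANP32B in red; each point is 1 library and each black bar the mean of 2. In every gene the 2 red points lie below the 2 blue points, and SMC4 is the highest and NCAPG the lowest gene in both groups.

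SMC2 and SMC4 are the ATPase arms that both condensins share. SMC2 (ENSG00000136824, chromosome 9 of hg38, 104094260 to 104141419, 25 exons) had 62.7 and 62.2 TPM in NC and 42.1 and 38.3 TPM in sh-ANP32B. The groups stood apart by 20.1 TPM. SMC2 fell by 0.62 on the log2 scale (95% interval -0.79 to -0.46, standard error 0.065, adjusted p = 0.00109 in limma), the smallest change of the 8, with an interval that reaches past the fold limit of -0.5. SMC4 (chromosome 3, 160399274 to 160434954, 24 exons) was the most abundant condensin transcript, with 188 and 197 TPM in NC and 117 and 115 TPM in sh-ANP32B. It fell by 0.73 on the log2 scale (95% interval -0.84 to -0.62, standard error 0.044, adjusted p = 2.32e-04 in limma). SMC4 shares 1553 exonic bases, 19.0% of its own, with TRIM59 on the opposite strand, which had a log2 fold change of -0.43, and 243 with IFT80, at 0.50. The sources used here do not say whether counting used the strand, so reads in such overlaps cannot be assigned to either gene. The annotation also names a pseudogene, SMC4P1.

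Among the subunits of condensin I alone, NCAPH fell furthest. NCAPH is the kleisin that bridges the SMC2 and SMC4 heads. NCAPH (ENSG00000121152, chromosome 2, 96335766 to 96377091, 18 exons) had 70.0 and 66.1 TPM in NC and 30.2 and 30.5 TPM in sh-ANP32B. Both knockdown libraries were thus within 0.02 of each other on the log2 scale, and below both NC libraries by at least 35.5 TPM. It fell by 1.14 on the log2 scale (95% interval -1.28 to -0.99, standard error 0.059, adjusted p = 1.67e-04 in limma), and 0.850% of all genes tested had a lower value. NCAPH, like SMC2 and NCAPG2, shares no exonic base with another gene of the annotation.

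NCAPG and NCAPD2 are the HEAT-repeat subunits of condensin I. NCAPG (chromosome 4, 17810979 to 17844865, 21 exons) was the least abundant of the 8, with 46.6 and 46.7 TPM in NC and 24.0 and 21.9 TPM in sh-ANP32B. It fell by 0.99 on the log2 scale (95% interval -1.17 to -0.82, standard error 0.071, adjusted p = 3.37e-04 in limma). NCAPG shares 1634 exonic bases, 33.7% of its own, with LCORL on the opposite strand, which had a log2 fold change of -0.37, and the annotation names 2 pseudogenes of it. NCAPD2 (chromosome 12, 6493356 to 6531955, 32 exons) had 179 and 185 TPM in NC and 103 and 105 TPM in sh-ANP32B. NCAPD2 fell by 0.80 on the log2 scale (95% interval -0.91 to -0.69, standard error 0.043, adjusted p = 1.79e-04 in limma). The NCAPD2 groups stood 73.6 TPM apart, the widest gap of the 8 genes in TPM. NCAPD2 shares 383 exonic bases with MRPL51 on the opposite strand and has 1 named pseudogene.

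The subunits of condensin II alone changed by nearly the same factor. NCAPG2 (chromosome 7, 158631169 to 158704804, 28 exons), the counterpart of NCAPG, had 154 and 141 TPM in NC and 81.7 and 79.6 TPM in sh-ANP32B. NCAPG2 fell by 0.86 on the log2 scale (95% interval -1.004 to -0.716, standard error 0.058, adjusted p = 2.91e-04 in limma), and the NC libraries differed more from each other than the knockdown libraries did. NCAPD3 (chromosome 11, 134150113 to 134225504, minus strand, 35 exons), the counterpart of NCAPD2, had 99.0 and 99.8 TPM in NC and 57.7 and 52.3 TPM in sh-ANP32B. NCAPD3 fell by 0.84 on the log2 scale (95% interval -0.998 to -0.690, standard error 0.062, adjusted p = 3.61e-04 in limma), and its knockdown libraries differed by 0.14 on the log2 scale, the widest gap between replicates among the 8. NCAPD3 shares 1889 exonic bases, 10.1% of its own, with JAM3 on the opposite strand, which had 1.04 to 1.75 TPM in the 4 libraries, and 249 with VPS26B and 96 with ENSG00000255348, also on the opposite strand. NCAPH2 (chromosome 22, 50508224 to 50524780, 20 exons), the kleisin of condensin II, had 77.5 and 74.8 TPM in NC and 41.7 and 43.8 TPM in sh-ANP32B. NCAPH2 fell by 0.82 on the log2 scale (95% interval -0.96 to -0.68, standard error 0.055, adjusted p = 3.01e-04 in limma). NCAPH2 shares 855 exonic bases, 19.2% of its own, with ENSG00000272821, a long noncoding RNA gene on the same strand. That gene had a log2 fold change of 0.44, which did not pass the test (adjusted p = 0.132 in limma). Reads in this overlap cannot be assigned by strand. NCAPH2 also shares 857 exonic bases, 19.2% of its own, with SCO2 on the opposite strand.

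**Figure D3:**
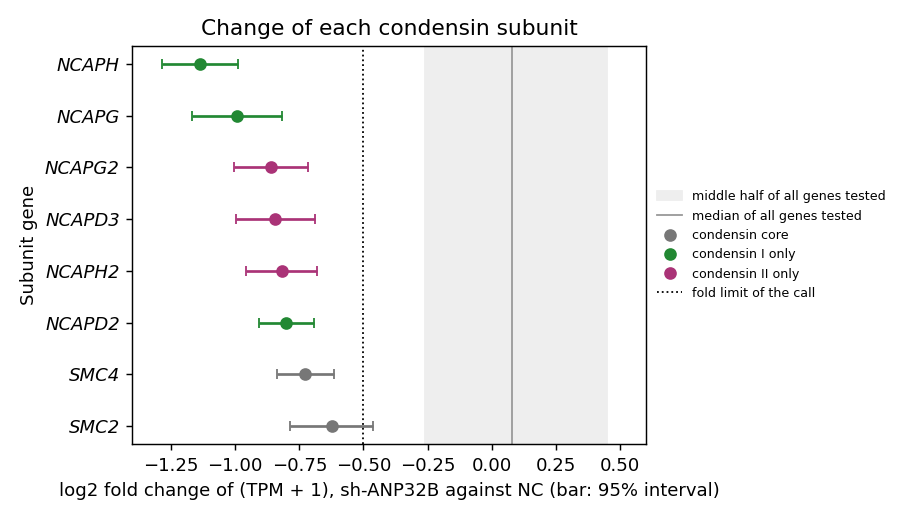
log2 fold change of TPM + 1 in sh-ANP32B against NC for each condensin gene, with its 95% interval from limma, coloured by complex; the grey band and line give the middle range and the median of all genes tested, and the dotted line the fold limit of -0.5. All 8 points lie left of the dotted line, from NCAPH at -1.14 to SMC2 at -0.62, and the interval of SMC2 crosses it.

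The order of the transcript levels was almost the same in both groups. In NC it ran from SMC4 (mean 193 TPM) through NCAPD2, NCAPG2, NCAPD3, NCAPH2, NCAPH and SMC2 to NCAPG (46.6 TPM), and no neighbours overlapped in their 2 libraries. In sh-ANP32B the first 5 and the last kept their places, and SMC2 (40.2 TPM) stood above NCAPH (30.4 TPM). There the ranges of NCAPH2 and SMC2 overlapped. The 8 genes together summed to 877 and 873 TPM in NC and 497 and 487 TPM in sh-ANP32B, 56.3% of the NC mean. The condensin I subunits summed to 53.0% of the NC mean, those of condensin II to 55.3%, and the shared arms to 61.2%.

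Within the 8-gene sum, NCAPH went from 7.98% and 7.57% of the TPM in NC to 6.08% and 6.27% in sh-ANP32B. SMC2 went the other way, from 7.15% and 7.12% to 8.46% and 7.87%. The share of NCAPH2 overlapped between the groups, at 8.84% and 8.56% against 8.39% and 8.99%.

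Subunits of the same role in condensin I and II were set against each other in each library, to see whether the complexes changed unequally. The ratio of the kleisins, NCAPH over NCAPH2, was 0.903 and 0.884 in NC and 0.724 and 0.697 in sh-ANP32B. All ratios are of TPM, and differences between groups are on the scale of log2(TPM + 1). The difference for the kleisins was -0.32, with SDs between replicates of 0.022 (NC, n = 2) and 0.038 (sh-ANP32B, n = 2), and the exact permutation test gave p = 0.333, the smallest that 2 against 2 allows. NCAPG over NCAPG2 was 0.303 and 0.332 in NC and 0.293 and 0.276 in sh-ANP32B. Its difference of -0.13 was close to the SD of 0.093 between the NC libraries (exact permutation p = 0.333).

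NCAPD2 over NCAPD3 was 1.81 and 1.86 in NC and 1.78 and 2.02 in sh-ANP32B, so the groups overlapped (difference 0.04, exact permutation p = 1). Its sign turned to -0.04 without the second sh-ANP32B library. SMC4 was on average 3.09 times as abundant as SMC2 in NC and 2.89 times in sh-ANP32B, with TPM ratios that overlapped between the groups narrowly. On the log2(TPM + 1) scale they did not overlap, with a difference of -0.10 (exact permutation p = 0.333), and this pair was added after the values were seen. With adjustment over the 4 pairs the smallest p was 0.444, so no pair could pass a threshold of 0.05 by this permutation test, and no other test of the pairs was run. The sums of the 3 subunits of each complex had a ratio, condensin I over condensin II, of 0.895 and 0.946 in NC and 0.867 and 0.899 in sh-ANP32B, and the groups overlapped.

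**Figure D4:**
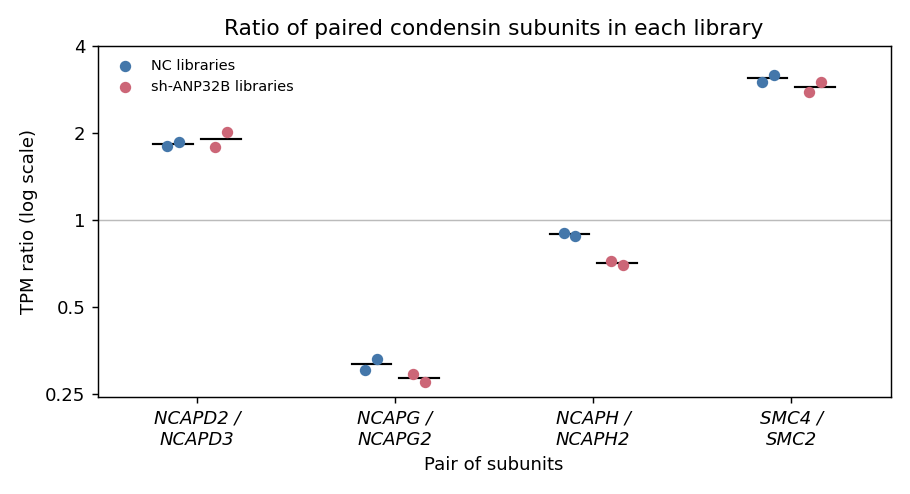
TPM ratio (log scale) of paired condensin subunits in each library, NC in blue and sh-ANP32B in red, with a bar at the mean of 2 libraries; the grey line marks equal levels. The NCAPH over NCAPH2 ratio is between 0.884 and 0.903 in NC and between 0.697 and 0.724 in sh-ANP32B, and the NCAPD2 over NCAPD3 ratios overlap.

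Regulators of condensin were described from a list of 11 genes, of which 10 were tested. Of these 10, 5 were called lower, against 10.1% of all genes tested, with a median log2 fold change of -0.63. The 5 were the mitotic kinases and cyclins CDK1 (-0.98), CCNB1 (-1.18), CCNA2 (-1.14), AURKB (-1.06) and PLK1 (-1.01), which phosphorylate condensin subunits or activate the kinase that does. MCPH1, an inhibitor of condensin II, had 21.8 and 21.4 TPM in NC and 17.9 and 17.2 TPM in sh-ANP32B. Its log2 fold change of -0.28 had an adjusted p of 0.0305 in limma and did not reach the fold limit. The casein kinase subunit CSNK2A1 had -0.27, and AKAP8, an anchor of condensin on chromatin, had -0.06 (adjusted p = 0.386 in limma).

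Of 7 partners of condensin on mitotic chromosomes, 5 were called lower, against 10.1% of all genes tested, with a median of -0.77. TOP2A, the topoisomerase that untangles mitotic chromosomes, fell by 0.99 on the log2 scale, from 255 and 259 TPM to 127 and 131 TPM. KIF4A, a chromosome kinesin that binds condensin I, fell by 0.91. TOP2B, the form also made by cells that do not divide, had a log2 fold change of -0.27, short of the fold limit.

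Cohesin is the SMC complex that holds sister chromatids together. Of its 5 core genes, 3 were called lower, against 10.1% of all genes tested, with a median of -0.66. SMC1A (-0.71), RAD21 (-0.68) and SMC3 (-0.66) fell, while STAG2 (-0.10) and STAG1 (-0.22) did not pass the test (adjusted p = 0.302 and adjusted p = 0.141 in limma). Of 12 genes that load, release, acetylate or cleave cohesin, 6 were called lower, against 10.1% of all genes tested. Among the 6 were CDCA5 (-1.20), which protects cohesin from release, and SGO1 (-1.13), while the loader NIPBL had -0.03. The SMC5/6 complex acts in DNA repair. Of 8 genes of this complex and its loaders, 2 were called lower, against 10.1% of all genes tested, with a median of -0.17. SMC5 had 32.1 and 32.9 TPM in NC and 34.1 and 31.9 TPM in sh-ANP32B. On these 5 lists 42 genes were tested, and 21 were called lower, against 10.1% of all genes tested. None of the 42 was called higher, against 17.9% of all genes tested. Whether condensin differed from these lists was not tested.

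**Figure D5:**
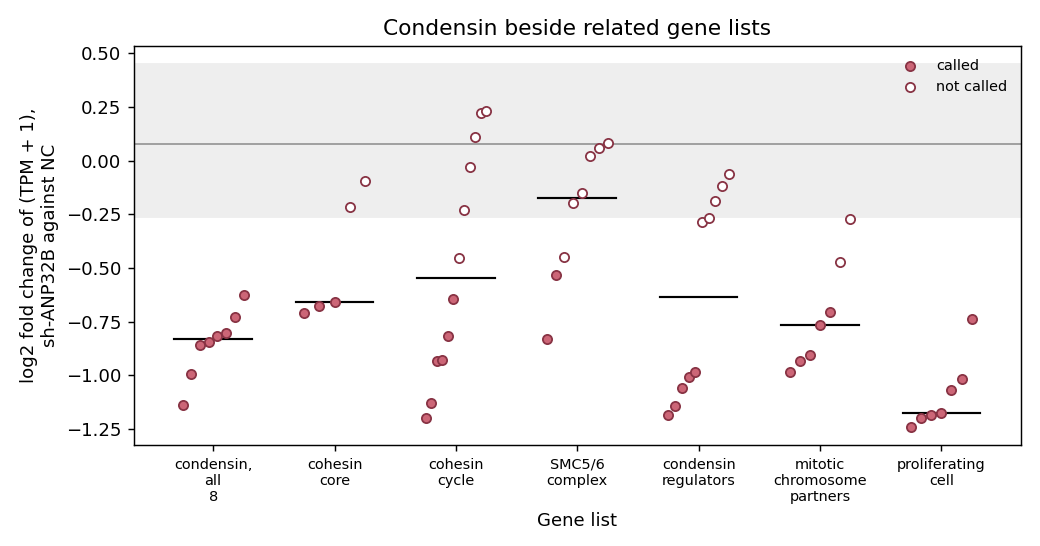
log2 fold change of TPM + 1 for each tested gene of 7 lists (filled points called, open points not called; black bar, median of the list), with the middle range and median of all genes tested in grey. All 8 condensin points are filled with a median of -0.83, against 3 of 5 for the cohesin core and 2 of 8 for the SMC5/6 complex. Of all genes tested, 10.1% were called lower.

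Markers of proliferating cells moved with condensin. All 7 on that list (PCNA, MCM2, MCM6, TYMS, RRM2, CCNB1, CDC20) were called lower, against 10.1% of all genes tested, with a median of -1.17. Their sum went from 1747 and 1766 TPM in NC to 807 and 818 TPM in sh-ANP32B. In RNA from a whole culture, fewer dividing cells and less condensin RNA per dividing cell cannot be told apart. Markers of maturing monocytes moved the other way. Of 10 listed, 8 were tested and 7 were called higher, against 17.9% of all genes tested. The 8 summed to 570 and 560 TPM in NC and 6009 and 5977 TPM in sh-ANP32B. Most of this was LYZ, with 471 and 463 TPM in NC and 5308 and 5260 TPM in sh-ANP32B. None of the 8 was at 0, although S100A8 and S100A9 were below 1 TPM in both NC libraries. These genes passed the filter only through sh-ANP32B, so their direction was fixed by the filter. The part of either marker list in the fall of condensin was not tested.

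The genes nearest in profile to the mean of the 8 condensin genes were KIF20B, MPLKIP, PPAT, RSL24D1 and NCL. Nearness was the distance over the 4 libraries between centred log2(TPM + 1) values, which with 4 libraries mostly reflects the size of the change. KIF20B, a kinesin of cytokinesis, had 33.4 and 32.7 TPM in NC and 18.3 and 17.6 TPM in sh-ANP32B, at a distance of 0.0144. The 5 had log2 fold changes from -0.86 (MPLKIP) to -0.83 (RSL24D1). Of the condensin genes, NCAPD3 lay nearest to their own mean (0.0716) and NCAPH farthest (0.293). Even so, 58 genes lay nearer to that mean than NCAPD3, and 1017 nearer than NCAPH.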

How the data were processed

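RNA of MV4-11 cells was sequenced in 2 NC and 2 sh-ANP32B libraries, grouped by their titles. The knockdown columns carry the mark S3, which no label holds, and were matched to sh-ANP32B by line and number, as the other columns are marked NC. Per the labels, reads were aligned to hg38 with HISAT2 (2.0.5). The authors deposited TPM per gene, and the tool and annotation behind them are not given in the sources used here. TPM keep no read numbers, so the depth is unknown. Of 18885 identifiers, 17290 had a GENCODE version 44 symbol. Genes reaching 1 TPM in 2 or more libraries were fitted with limma 3.58.1 (R 4.3.3, eBayes with trend) on log2(TPM + 1), two-sided, with Benjamini-Hochberg adjustment over all genes tested. The fit was tested on simulated data. Calls needed an adjusted p below 0.05 and a change of more than 0.5 on the log2 scale, the fold limit of the study's methods. The subunits, gene lists and motifs were chosen with earlier results of these data known. Named genes were the 8 subunits, ANP32B, members of the lists, and the 5 genes nearest in profile. Exons overlapping a subunit's exons were also looked up. Promoter windows came from RefSeq (GRCh38.p14). Protein sequences and the genes CD14, VCAN, M18BP1 and SCO2 were not analysed here. Alternatives were the replicate block, other filters, pseudocount, scaling and call rules, and leaving out each library.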

Additional observations from a re-analysis of the deposited data

How the results depend on the processing

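All 8 condensin genes were called lower under the other filters, the pseudocount of 0.1, both scalings, the replicate block and each library left out. The adjusted p of each gene in limma stayed at or below 0.00695 in these, and the range of log2 fold changes was widest for NCAPD3 (-0.93 to -0.77). With a log2 fold change beyond 1, 1 condensin gene (NCAPH) was called, along with 273 lower and 1136 higher genes in all, and with no fold limit 3342 genes were lower. With each library left out, the lower genes in all ran from 1517 to 1680 and the higher from 2357 to 2677, where a lone library is assumed to vary like the other group. The difference of NCAPD2 over NCAPD3 turned to -0.0434 without the second sh-ANP32B library, and ran from -0.04 to 0.13 over the libraries left out. The labels link same-numbered libraries only by their number (correlation of their deviations -0.0232). Under the replicate block 1671 genes were lower and 2853 higher, and the condensin count stayed at 8. As TPM keep no depth, counting error could not be given.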
